A study of Mus musculus with 37 samples.

Results

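Complement is a cascade of blood and tissue proteins that marks surfaces for clearance and can punch pores in membranes. C1q binds antibody or damaged cells and starts the classical pathway, which cleaves C4 and C2 to form an enzyme that cuts C3. The alternative pathway uses factor B to make further C3-cutting enzyme on the deposited C3, and host cells hold the cascade in check with surface regulators such as CD55, which takes the C3-cutting enzymes apart, and CD59, which blocks the pore. In the kidney most circulating complement comes from the liver, but tubular epithelium, macrophages and glomerular cells make some of these proteins locally.

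The members described here are 8 mouse genes of this cascade: the C1q chains C1qa, C1qb and C1qc, C4b, the central component C3, factor B (Cfb), and the membrane regulators Cd55 and Cd59a. They were listed by symbol, and the list was chosen by earlier results of these data in which C3 was higher and Cfb lower in diabetic libraries of the type 2 model. Each symbol matched 1 of 32108 genes in the deposited tables, and all 8 passed the filter on low counts. The diabetic against control values of the type 2 model are therefore given as a description with no p-value. Tests are given for the type 1 model, for the controls, and for the complement genes outside the list. The type 2 controls were part of those earlier results, so tests of members that use them are not free of that choice.

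RNA was prepared by translating ribosome affinity purification (TRAP), which pulls down ribosomes carrying a tag expressed in 1 cell type, here podocytes, the epithelial cells that cover the glomerular capillaries. All mice were labelled C57BL/6. Type 2 model controls were eNOS-/- and type 2 diabetic mice were eNOS-/- db/db, so that every mouse of this model, controls included, lacked endothelial nitric oxide synthase, and the diabetic mice also carried the leptin receptor mutation. There were 5 control and 5 diabetic libraries at 3 months of age, and 4 control and 3 diabetic libraries at 6 months. Type 1 model mice had no genotype label, and received streptozotocin (STZ), a drug that kills pancreatic beta cells, or no STZ. The early type 1 set, aged 3 months, had 4 libraries labelled no STZ and 5 labelled STZ 3 weeks. The late set, aged 8 months, had 5 libraries labelled no STZ and 5 labelled STZ 24 weeks. Here STZ as a drug and the diabetes it brings on cannot be told apart. One library of total RNA from a whole kidney of an eNOS-/- control at 3 months completed the set of 37. The labels do not say which animal each library came from, and the p-values therefore rest on how far libraries differ, some of which may be technical.

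Total counts ran from 6702120 to 37786025 in the 36 TRAP libraries, with 28033680 in the kidney library. Podocyte genes marked the TRAP libraries: in the type 2 controls at 3 months the ratio over whole kidney was 110.4 for Nphs1 and 132.2 for Wt1. Markers of other kidney cells were present too. The summed level of 14 proximal tubule markers was 9445 to 13916 CPM (counts scaled to a common library size with TMM factors) in those 5 libraries against 28900 CPM in the kidney, and that of 15 macrophage markers was 61.0 to 86.2 CPM against 140.6 CPM. Nos3, which encodes endothelial nitric oxide synthase, had group means of 3.53 to 9.48 CPM in the type 2 model and 5.03 to 8.29 CPM in the type 1 model. A count over the whole gene does not show which exons a deletion removed, so it checks no genotype label. In bulk RNA, fewer cells of a type and less RNA per cell cannot be told apart.

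The stretch of genome directly before the start of a gene is shown for C3, the member that differed most in diabetic libraries, for C1qc, from the C1q group that moved together, and for Cd59a, the most abundant membrane regulator. Promoters of 5 of the 8 members were matched in the RefSeq table (build GRCm38.p6): C3, C1qb, C1qc, Cd55 and Cd59a. Each line gives 250 bases, 5′ to 3′ on the gene's strand, ending at the base before the start that RefSeq gives. For C1qc that start lies inside the longer gene of the GENCODE annotation. Capitals mark letters that matched a motif searched on both strands: TTNCNNAA, a C/EBP-type site, the NF-kB consensus, the interferon-stimulated response element, TTCNNNGAA, a STAT type, and TATAAA.
C3, chr17:57228137-57228386, minus strand: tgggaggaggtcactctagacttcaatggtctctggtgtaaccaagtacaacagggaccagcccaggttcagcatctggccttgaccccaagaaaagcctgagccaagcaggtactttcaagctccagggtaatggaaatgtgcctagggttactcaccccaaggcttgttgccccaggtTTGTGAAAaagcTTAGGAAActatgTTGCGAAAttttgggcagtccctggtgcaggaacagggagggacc
C1qc, chr4:136892915-136893164, minus strand: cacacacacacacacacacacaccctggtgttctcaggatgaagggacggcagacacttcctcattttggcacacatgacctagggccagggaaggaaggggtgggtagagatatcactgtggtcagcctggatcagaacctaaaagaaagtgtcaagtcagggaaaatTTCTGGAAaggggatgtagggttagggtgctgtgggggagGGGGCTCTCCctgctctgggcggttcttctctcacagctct
Cd59a, chr2:104095551-104095800, plus strand: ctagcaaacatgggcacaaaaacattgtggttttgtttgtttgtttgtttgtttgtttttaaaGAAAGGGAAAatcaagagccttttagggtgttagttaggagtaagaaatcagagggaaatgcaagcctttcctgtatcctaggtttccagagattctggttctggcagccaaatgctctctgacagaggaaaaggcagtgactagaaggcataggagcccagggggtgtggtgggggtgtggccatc
The C3 window held 3 matches of TTNCNNAA, at -70, -58 and -45 from the start, none overlapping another motif. A match of that motif was found in 36.8% of all 32544 promoter windows of this length. C1qc held 1 such match at -81 and 1 of the NF-kB consensus at -41, the latter found in 3.92% of windows. Cd59a held 1 match of the interferon-stimulated response element at -187, found in 2.98% of windows. The windows of Cd55 and C1qb held no match of any of the 5 motifs, and TTCNNNGAA, found in 7.04% of windows, and TATAAA, found in 12.3%, matched in none of the 5 members. These are matches of letters, not sites shown to be bound.

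The 8 members fell into a high and a low group when TRAP RNA of the 5 type 2 controls at 3 months was set against the whole kidney library. Both membrane regulators were far higher in TRAP RNA. Cd55 was at 99.26, 93.45, 74.01, 41.23 and 45.67 CPM in the TRAP libraries and 6.923 CPM in the kidney, a ratio of 9.6 (8.63 to 10.6 as each TRAP library was left out). Cd59a was at 278.0, 262.7, 189.7, 131.2 and 142.7 CPM against 22.36 CPM, a ratio of 8.81 (7.96 to 9.57). Both regulators stood above the kidney in all 5 libraries. The other 6 members were lower in TRAP RNA. C3 was at 22.01, 19.84, 25.88, 29.64 and 32.26 CPM against 59.01 CPM in the kidney (exact Poisson 95% interval 56.2 to 61.9 CPM, which covers counting error only), 2.25 times lower, and every TRAP library was below that interval. C1qb, with a ratio of 0.31, C4b at 0.487, C1qa at 0.592, C1qc at 0.635 and Cfb at 0.707 were also lower by their means, although C1qc in TRAP library 5, at 9.272 CPM, was above the kidney's 8.844 CPM. There was 1 kidney library, so no test was made. Over all 17180 genes of the type 2 fit, 8.94% had a ratio above 2, as Cd55 and Cd59a did, and 8.55% had a ratio below 0.5, as C3, C4b and C1qb did.

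**Figure D1:**
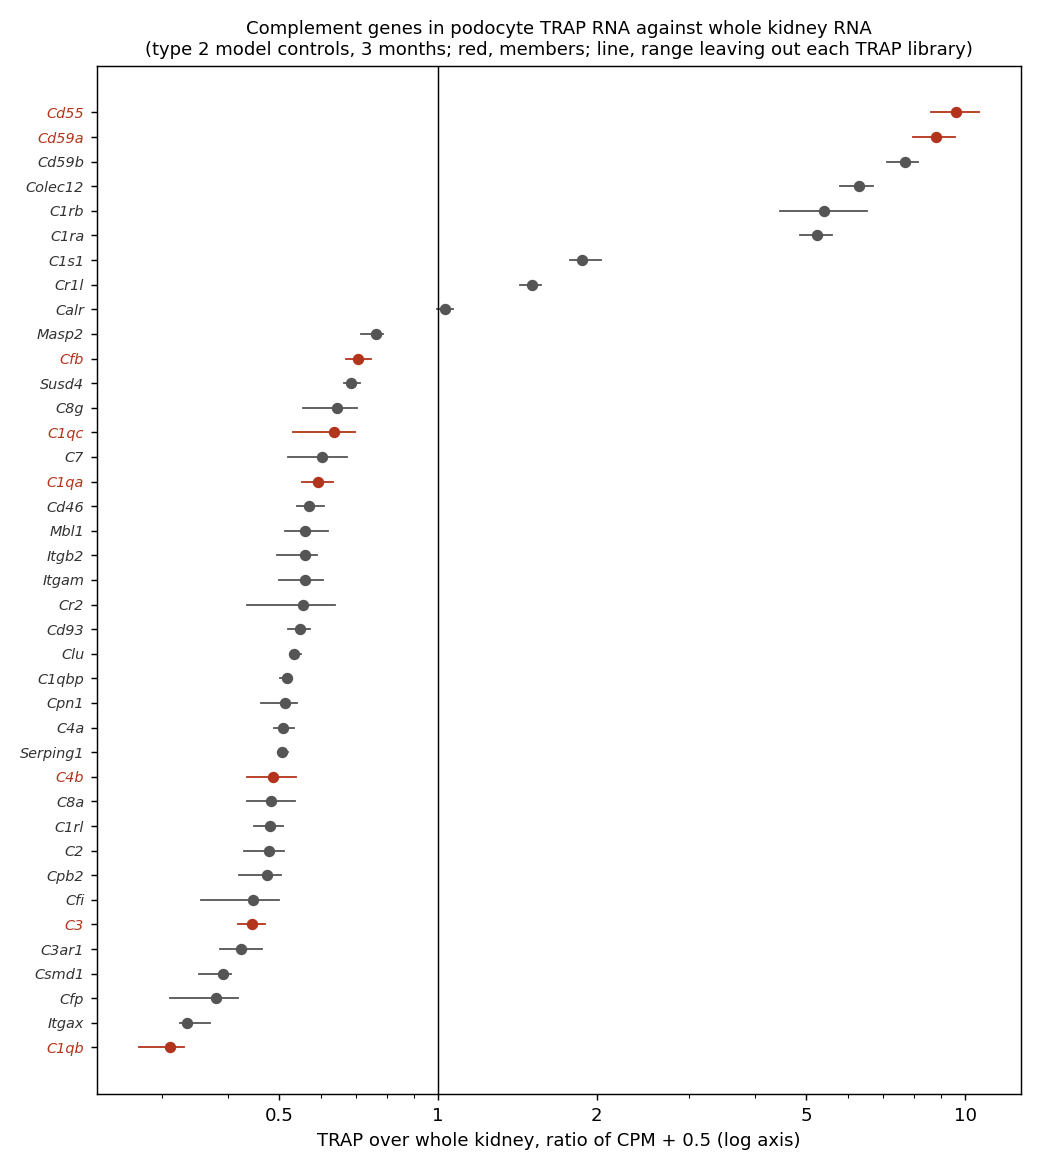
Ratio of TRAP RNA (mean of the 5 type 2 model controls at 3 months) to the whole kidney library for 39 complement genes at 1 CPM or more in either, on a log axis; red marks the members and lines show the range as each TRAP library was left out. Cd55 at 9.6 and Cd59a at 8.81 lead, and C1qb at 0.31 is lowest.

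Among other complement genes, few shared this enrichment. Cd59b, the neighbouring copy of Cd59a, had a ratio of 7.69, and 3.87% of the 50-base words of Cd59a transcripts also occur in Cd59b. The scavenger receptor and collectin Colec12 was at 6.28, C1ra, a serine protease of the C1 complex, at 5.23, and its partner C1s1 at 1.88. Cr1l (Crry), the rodent membrane regulator that limits C3 cleavage, was at 1.51. The soluble regulators were lower in TRAP RNA: Serping1 had a ratio of 0.507 and Clu of 0.534.

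Per length, on the deposited FPKM scale, Cd59a was the most abundant member in type 2 controls at 3 months (111.5 ± 39.1 FPKM, SD, n = 5), followed by Cd55 (14.7 ± 5.74), C1qa (6.23 ± 1.56), C3 (5.03 ± 0.928), Cfb (4.72 ± 0.936), C1qb (3.12 ± 1.08), C1qc (2.81 ± 1.23) and C4b (2.24 ± 0.672). C3 and Cfb differed by less than either SD, as did C1qb and C1qc, and C1qc and C4b. In type 2 diabetic libraries at 6 months C3 headed the order instead, at 264.7 ± 120.0 FPKM (n = 3), with Cd59a at 44.9 ± 24.3 FPKM.

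C3 (chr17:57203970-57228136, minus strand) encodes the protein on which all complement pathways converge. In the type 1 model it was higher in every diabetic library than in any control of the same age. The same held in the type 2 model, where it is a description only, since the list was chosen there. What share of all genes had no overlap between groups was not computed, here or for the members below. At 3 months, type 2 controls were at the 5 values given above, and diabetic libraries at 205.3, 148.7, 106.6, 678.7 and 449.2 CPM. Diabetic libraries 4 and 5 were the highest, and the lowest diabetic library was still above the highest control. The means were 25.9 ± 5.16 and 318 ± 242 CPM (SD), a log2 change of 3.61 (SE 0.44). Without diabetic libraries 4 and 5 the log2 change was 2.56. At 6 months, controls were at 72.99, 48.46, 51.59 and 51.38 CPM, and diabetic libraries at 1340.7, 635.5 and 1600.7 CPM. The groups were far apart, with means of 56.1 ± 11.4 and 1192 ± 499 CPM and a log2 change of 4.43 (SE 0.52). The change at 6 months exceeded that at 3 months by 0.82 on the log2 scale (SE 0.62). That difference was 1.88 without diabetic libraries 4 and 5 at 3 months, and no test is given because the list was chosen on this model.

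The type 1 model, whose values the choice of the list does not name, was tested. In the early set, C3 was at 59.12, 64.41, 72.62 and 40.33 CPM without STZ and at 321.8, 491.1, 382.3, 268.0 and 252.9 CPM after STZ. The groups did not overlap, and C3 rose by 2.51 in log2 units (SE 0.43, adjusted p = 0.00158, edgeR quasi-likelihood test with Benjamini-Hochberg adjustment over 16279 genes). In the late set, libraries without STZ were at 82.25, 44.9, 54.83, 185.1 and 85.75 CPM and libraries after STZ at 251.1, 682.5, 828.1, 231.1 and 339.7 CPM. Control library 4 stood well above its group but below every STZ library. C3 rose by 2.37 (SE 0.39, adjusted p = 0.00358, edgeR), and by 2.04 to 2.81 over the 17 alternatives tried. The changes at 24 and 3 weeks differed by -0.14 (SE 0.54, adjusted p = 0.992, edgeR).

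Group means of C3 differed between controls, but none of the differences given here passed the test. Those that use type 2 controls are not free of the choice of the list. Type 2 controls at 6 months were all above those at 3 months, by 1.12 on the log2 scale (SE 0.42), which failed the correction (edgeR adjusted p = 1.0). In that comparison edgeR called 0 of 17180 genes (0%), with 540 at an unadjusted p under 0.05, and DESeq2 called 21. Type 1 controls at 8 months were 0.61 above those aged 3 months (SE 0.40, adjusted p = 0.465, edgeR), with overlapping libraries. Type 1 controls aged 3 months were all above type 2 controls of that age, by 1.19 (SE 0.44, adjusted p = 0.133, edgeR), and since type 1 mice have no genotype label, model and genotype cannot be told apart here. By group mean, C3 was ordered from the late type 2 diabetic group (1192 CPM) through the late type 1 (466.5 CPM), early type 1 (343 CPM) and early type 2 (318 CPM) diabetic groups. The late type 1 controls (90.6 CPM), early type 1 controls (59.1 CPM), kidney (59.0 CPM), late type 2 controls (56.1 CPM) and early type 2 controls (25.9 CPM) followed. The 3 diabetic groups between 318 and 466.5 CPM overlapped each other, and the lowest late type 2 diabetic library, at 635.5 CPM, lay within the ranges of the early type 2 and late type 1 diabetic groups. The late type 2 controls and both type 1 control groups overlapped one another.

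**Figure D2:**
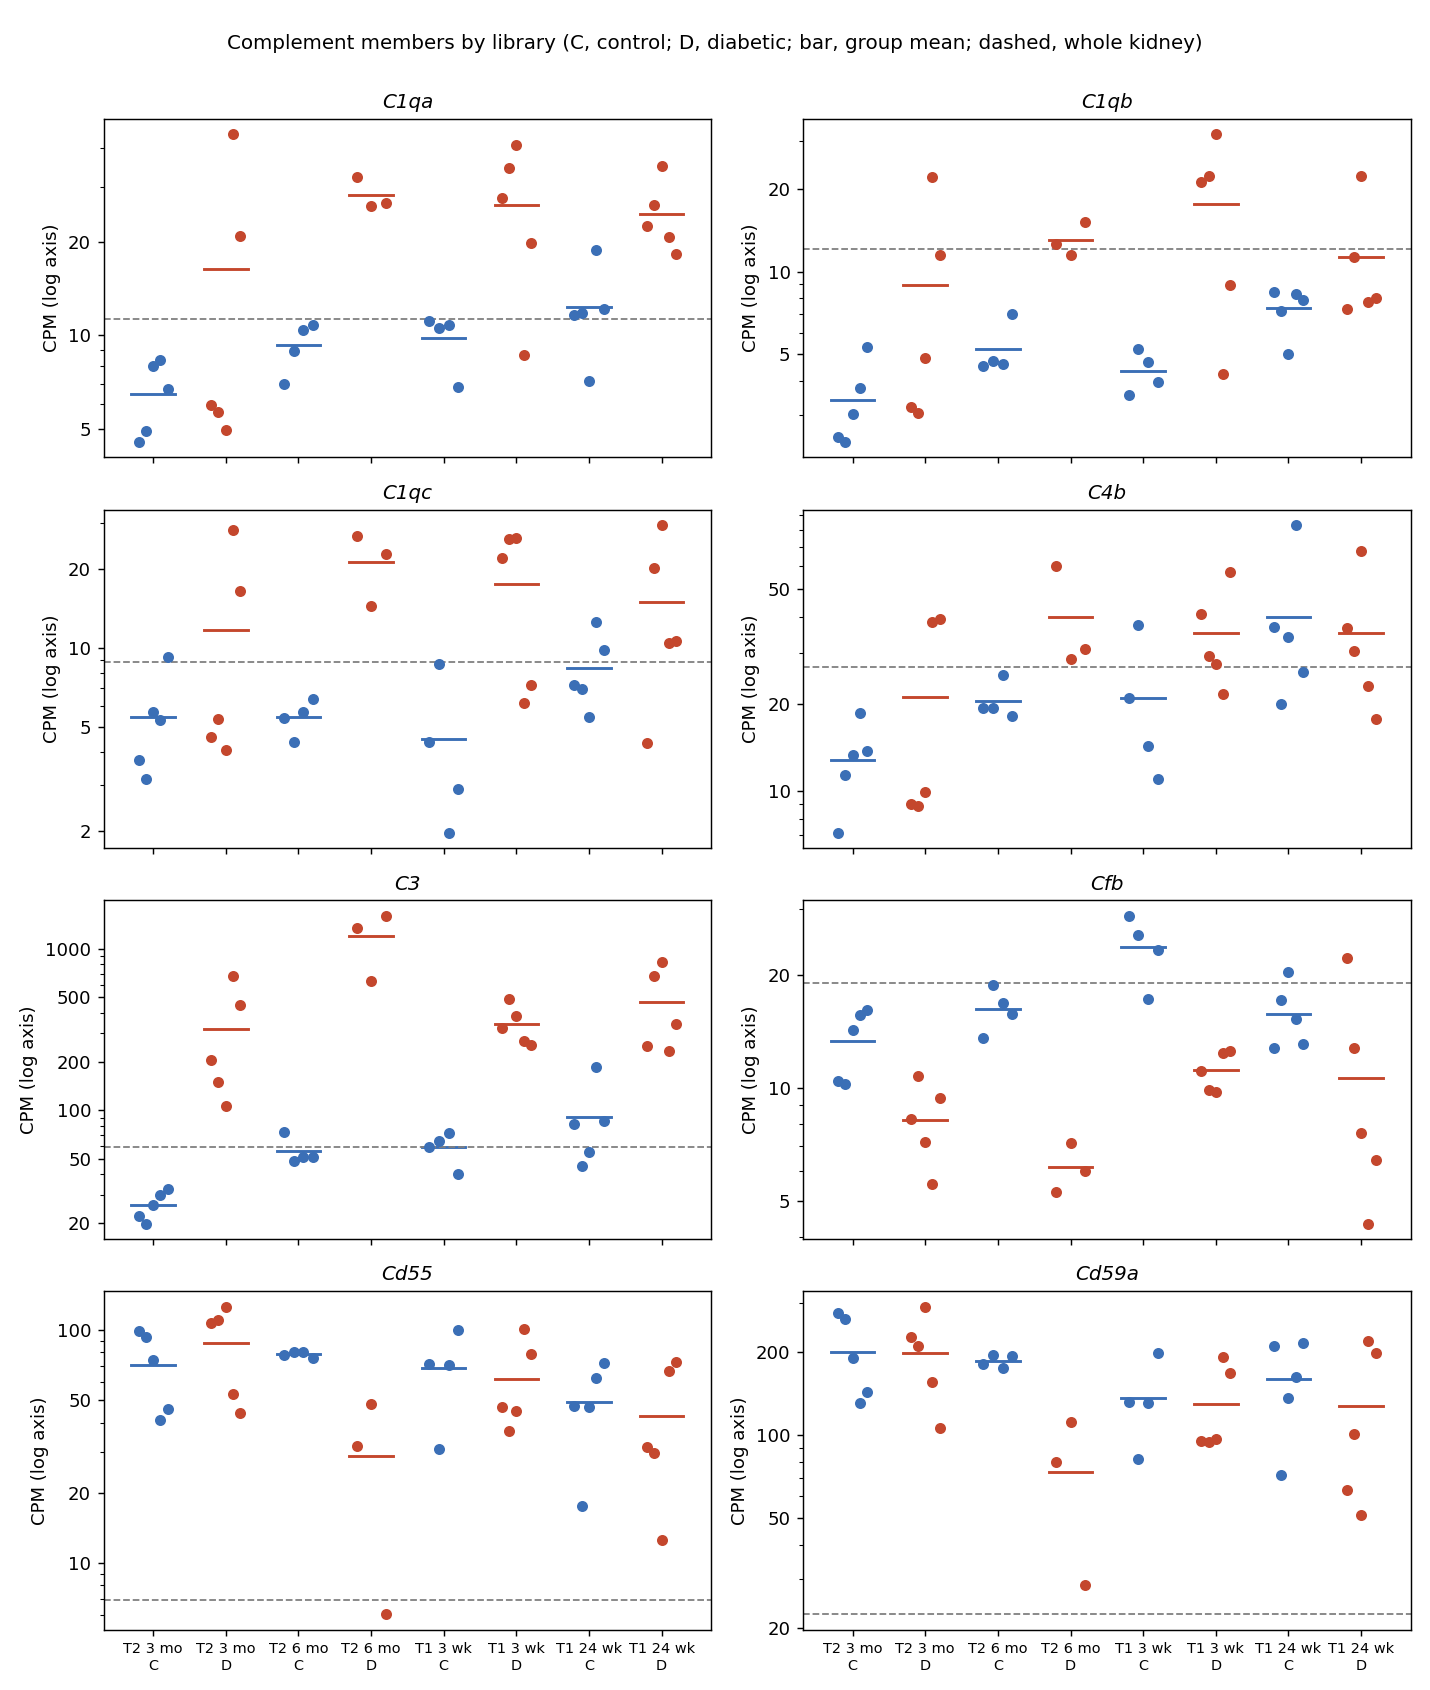
Level in CPM of each member in each TRAP library on log axes, blue for controls and red for diabetic groups, with bars at group means and a dashed line at the whole kidney library. C3 is higher in every diabetic library than in its controls, and Cd55 and Cd59a are lower in all 3 type 2 diabetic libraries at 6 months than in the 4 controls. The type 2 separations are a description, since the list was chosen on that model.

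Summed markers of tubular injury had higher group medians in the same diabetic groups as C3, with overlapping libraries in both type 1 sets. Of 10 such markers, 7 rose in type 2 diabetic libraries at 3 months, 9 at 6 months, 6 in the early type 1 set and 2 in the late set (edgeR, adjusted p under 0.05), and none fell. Of all genes tested, 3.99%, 22.9%, 6.5% and 0.897% were called in either direction in these comparisons, in that order. The same shares stand beside the counts of called markers and complement genes below. Their summed level was 808 to 1058 CPM in controls and 1659 to 2961 CPM in diabetic libraries at 3 months, and 1019 to 1378 CPM against 2313 to 2492 CPM at 6 months. In the type 1 model it was 573 to 1936 CPM against 1558 to 2022 CPM in the early set, and 686 to 1460 CPM against 1047 to 1823 CPM in the late set. The kidney library was at 551 CPM, and no marker on the list was at 0 in any group. The list holds Clu, itself a complement regulator. Its most abundant members were Vim, Clu and Spp1, and Vim, which encodes vimentin, is also made by podocytes. The part of tubular RNA in the C3 values was not tested.

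Across the 36 TRAP libraries, the genes whose log2 level was most like that of C3 included Spp1 (Pearson r = 0.952), Cxcl16 (0.942), Apoe (0.93) and Clu (0.922). With each group's mean taken out, the nearest included Spp1 (0.88), Cxcl16 (0.849), Lyz2 (0.818) and Cp (0.812). Spp1, which encodes the secreted phosphoprotein osteopontin, and Lyz2, a lysozyme of macrophages, are on the tubular injury and macrophage lists. These r values describe libraries that share groups, depth and cell makeup, and they carry no test. Among the members, C3 was most like C1qa (0.822) and least like Cfb (-0.638). With group means taken out, it was most like C1qc (0.774) and least like Cd55 (-0.488), and its r with Cfb was -0.161.

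Cfb (chr17:34856374-34862518, minus strand) encodes the protease of the alternative pathway's C3-cutting enzyme. Its levels differed from those of C3 in the opposite direction. In the early type 1 set, libraries without STZ were at 28.77, 25.57, 17.26 and 23.36 CPM and libraries after STZ at 11.12, 9.888, 9.757, 12.42 and 12.53 CPM. No STZ library reached the lowest control, and Cfb fell by 1.13 in log2 units (SE 0.33, adjusted p = 0.0447, edgeR). This call was close to the threshold: it was lost in 9 of 16 alternatives, including 7 of the 9 that leave out 1 library, with adjusted p from 0.0104 to 0.124. In the late set, controls were at 12.79, 17.19, 20.4, 15.26 and 13.07 CPM and STZ libraries at 22.17, 12.75, 7.601, 4.353 and 6.443 CPM. STZ library 1 was above all the controls while the other 4 were below all of them, and the log2 change was -0.57 (SE 0.32, adjusted p = 0.567, edgeR).

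Type 2 controls at 3 months had Cfb at 10.43, 10.27, 14.26, 15.69 and 16.18 CPM, and diabetic libraries at 8.28, 10.78, 7.182, 5.56 and 9.385 CPM, overlapping in 1 library, with a log2 change of -0.71 (SE 0.20). At 6 months the controls were at 13.61, 18.76, 16.86 and 15.78 CPM and the diabetic libraries at 5.294, 7.148 and 6.012 CPM, with no overlap and a log2 change of -1.39 (SE 0.26). Proximal tubule markers moved in the same direction: of 14, the number that fell was 2 and 9 in the type 2 model at 3 and 6 months, and 7 and 2 in the early and late type 1 sets, and none rose. Their summed level at 6 months was 10750 to 13344 CPM in controls and 2844 to 7209 CPM in diabetic libraries. The early type 1 set had 10916 to 17724 CPM against 4639 to 8622 CPM. The genes most like Cfb over the 36 libraries were Ghr (0.821), Ggt1 (0.786), Aldh3a2 (0.769), Nus1 (0.761) and Lrp2 (0.76), and Ggt1, an enzyme, and Lrp2, the endocytic receptor megalin, belong to the proximal tubule brush border. With each group's mean taken out, the nearest were Rffl (0.679), Esrra (0.661), Zfp276 (0.66), Rabl6 (0.65) and Igfbp4 (0.64), none of them on the proximal tubule list. The part of tubular RNA in the Cfb values was not tested. Exons of Cfb overlap the annotated same-strand gene Gm20547, which was not analysed here.

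The ratio of C3 to Cfb, on the per-length FPKM scale, sets the central component beside its alternative-pathway protease. Its separation in the type 2 model follows from the choice of the list on these genes and is a description only. Its median over libraries was 1.06 in type 2 controls and 13.6 in diabetic libraries at 3 months, and 1.74 and 139 at 6 months. In the type 1 model it was 1.26 and 15.9 in the early set, and 3.53 and 29.2 in the late set, against 1.7 in the kidney. The lowest diabetic ratio at 6 months in the type 2 model was 48.8 and the highest control ratio 2.95.

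C1qa (chr4:136895917-136898803), C1qb (chr4:136880129-136886187) and C1qc (chr4:136889804-136893065), all on the minus strand, encode the chains of C1q and lie side by side in the genome. All 3 rose in the early type 1 set. C1qa was at 11.13, 10.55, 10.83 and 6.828 CPM without STZ and 27.64, 34.61, 41.0, 8.636 and 19.84 CPM after STZ, a rise of 1.39 (SE 0.35, adjusted p = 0.0175, edgeR). C1qb was at 3.558, 5.203, 4.695 and 3.947 CPM against 21.33, 22.46, 31.83, 4.242 and 8.92 CPM, a rise of 2.00 (SE 0.45, adjusted p = 0.00932, edgeR). C1qc was at 4.391, 8.647, 1.969 and 2.881 CPM against 22.04, 26, 26.17, 6.136 and 7.216 CPM, a rise of 1.93 (SE 0.55, adjusted p = 0.0365, edgeR). For each chain STZ library 4 lay within the range of the controls, and STZ libraries 1 to 3 were the highest. For C1qc, STZ library 5 lay within that range as well. The C1qc call was lost in 7 of 16 alternatives, 6 of which leave out 1 library (adjusted p 0.0051 to 0.0934). The C1qa call was lost without control library 4 (adjusted p = 0.0527, edgeR) or without STZ library 3 (0.0572), and the C1qb call held in all 16.

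In the late type 1 set none of the chains passed the test: C1qa changed by 0.99 (SE 0.32, adjusted p = 0.168, edgeR), C1qb by 0.62 (SE 0.40, adjusted p = 0.669) and C1qc by 0.83 (SE 0.49, adjusted p = 0.613). The smaller change of C1qb at 24 than at 3 weeks, -1.38 on the log2 scale (SE 0.59), failed the correction (edgeR adjusted p = 0.691). In that difference of changes edgeR called 0 of 16279 genes (0%), with 1092 at an unadjusted p under 0.05, and DESeq2 called 67.

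Type 2 diabetic libraries at 3 months split within their group. The summed level of the 3 chains was 94.82 and 48.95 CPM in diabetic libraries 4 and 5, and 13.74, 14.05 and 13.88 CPM in libraries 1 to 3, while the controls ran from 10.47 to 21.31 CPM. The log2 changes were 1.33 for C1qa (SE 0.48), 1.39 for C1qb (SE 0.44) and 1.11 for C1qc (SE 0.46). Without libraries 4 and 5 they were -0.24, 0.13 and -0.22. At 6 months all 3 diabetic libraries were above all 4 controls for each chain. Every member was without overlap in this comparison, some higher and some lower, and 22.9% of all genes were called there. The share of all genes without overlap was not computed, so nothing is read from this separation. C1qa was at 32.29, 26.09 and 26.68 CPM against 7.001 to 10.81 CPM (log2 change 1.63, SE 0.57), C1qb at 12.65, 11.48 and 15.16 CPM against 4.538 to 7.039 CPM (1.34, SE 0.52), and C1qc at 26.67, 14.45 and 22.8 CPM against 4.386 to 6.393 CPM (1.98, SE 0.55).

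C1q is made mainly by macrophages and dendritic cells, and macrophage markers were high in the libraries with high C1q, though not only in these. Of 15 macrophage markers, none rose in the type 2 model at 3 months, 9 rose at 6 months, 6 in the early type 1 set and none in the late set, and none fell. Their summed level was 371 and 173 CPM in type 2 diabetic libraries 4 and 5 at 3 months, 40.6 to 58.0 CPM in the other 3, and 61.0 to 86.2 CPM in the controls. At 6 months it was 191 to 414 CPM in diabetic libraries against 86.6 to 132 CPM. In the early type 1 set it was 140.4 to 368 CPM after STZ against 53.9 to 110.4 CPM, and in the late set 147 to 274 CPM against 83.8 to 156 CPM. STZ library 4 of the early set had 164.4 CPM of these markers, above every control. Its C1q sum, at 19.01 CPM, was within the control range of 13.66 to 24.4 CPM. No macrophage marker was at 0 throughout a group. Of 7 parietal epithelial markers 2, 6, 2 and 0 rose in the 4 comparisons, in the order type 2 at 3 and 6 months and type 1 early and late, and of 10 mesangial and smooth muscle markers 2, 5, 2 and 0. The genes most like the C1q sum over the 36 libraries were Ctsc (0.945), Lyz2 (0.935), Icam1 (0.931), Ctss (0.922) and Csf1 (0.903), and Lyz2 and Ctss are on the macrophage list. The part of macrophage RNA in the C1q values was not tested.

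The proportions of the chains varied between libraries. On the FPKM scale the ratio of C1qb to C1qa had a median of 0.508 over the 36 TRAP libraries, with a range of 0.306 to 0.933, and stood at 1.02 in the kidney. The ratio of C1qc to C1qa had a median of 0.371, with a range of 0.0979 to 0.744, and stood at 0.421 in the kidney. In the early type 1 set, the medians of the C1qb to C1qa ratio were 0.4425 without and 0.62 with STZ, and the ranges of 0.306 to 0.553 and 0.43 to 0.742 overlapped. The medians of the C1qc to C1qa ratio there were 0.22 and 0.383, with overlapping ranges of 0.0979 to 0.441 and 0.196 to 0.429.

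**Figure D3:**
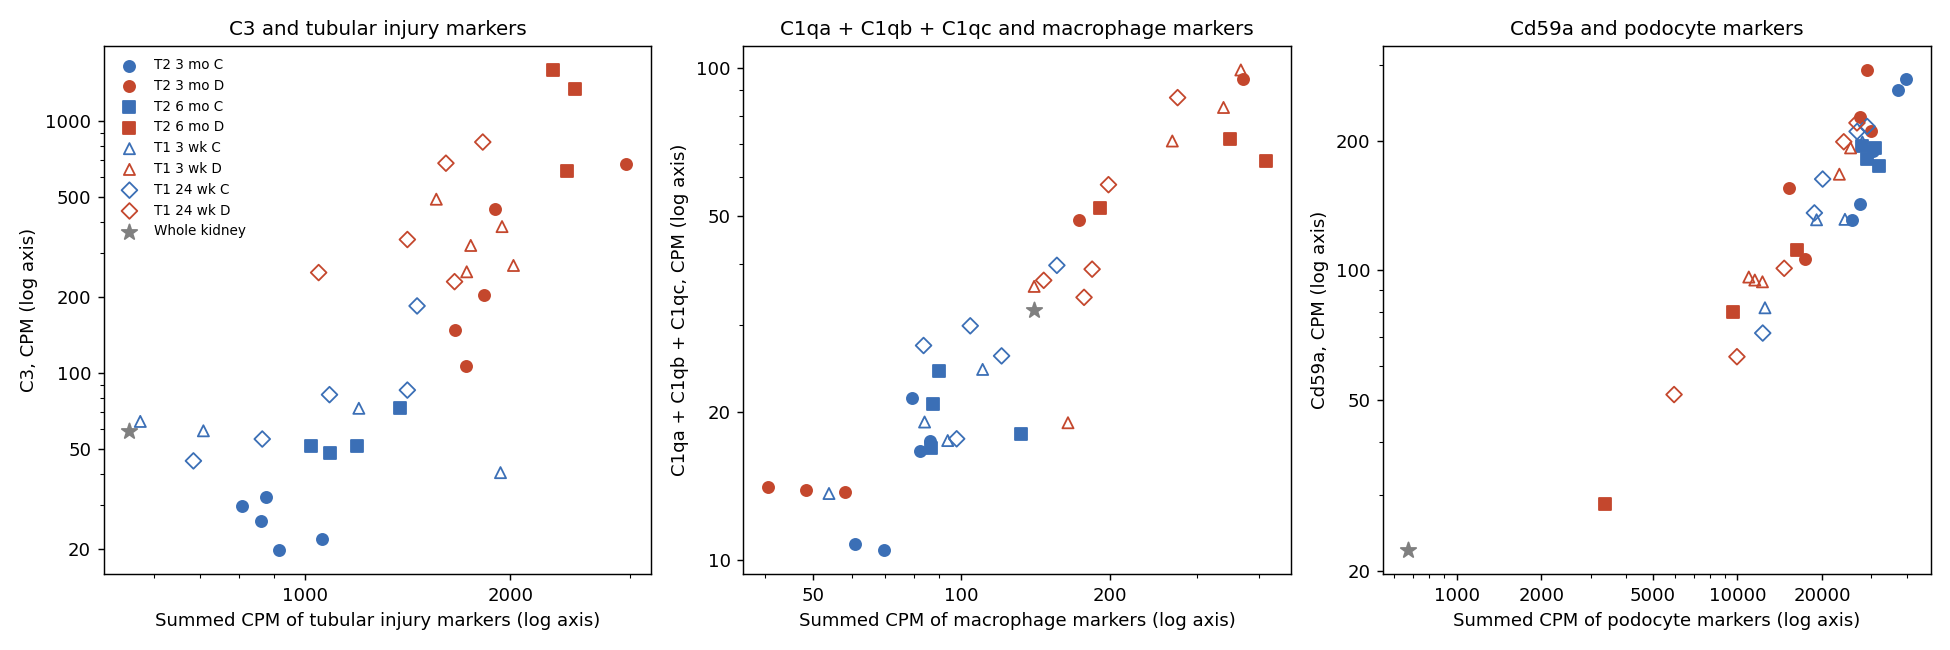
Each point is 1 library, with the summed CPM of a marker list on the x axis and of the member on the y axis, both on log axes; blue is control, red diabetic, filled shapes the type 2 and open shapes the type 1 model, and the star the whole kidney. Type 2 diabetic libraries 4 and 5 at 3 months lie at 371 and 173 CPM of macrophage markers and 94.82 and 48.95 CPM of C1q, apart from the other 3 of their group.

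C4b (chr17:34728380-34743882, minus strand) encodes C4, the classical pathway substrate of the C1 complex. It did not pass the test in either type 1 set. Early libraries were at 20.89, 37.37, 14.31 and 10.94 CPM without STZ and 40.86, 29.3, 27.5, 21.59 and 56.93 CPM after STZ (log2 change 0.71, SE 0.45, adjusted p = 0.403, edgeR). Late libraries were at 36.75, 19.97, 34.14, 83.15 and 25.8 CPM against 36.58, 30.36, 67.41, 23.0 and 17.68 CPM (-0.19, SE 0.42, adjusted p = 0.942, edgeR). Control library 4 was the highest of its set, and without it the change was 0.27. At 3 months type 2 diabetic libraries 4 and 5 were again apart, at 38.46 and 39.21 CPM, while libraries 1 to 3 were at 8.97, 8.814 and 9.86 CPM and the controls at 7.149 to 18.5 CPM. The log2 change was 0.71 (SE 0.41), and -0.48 without those libraries. At 6 months all diabetic libraries, at 60.18, 28.54 and 30.94 CPM, were above the controls, at 18.16 to 25.09 CPM (0.98, SE 0.49), and the change was 0.56 without diabetic library 1. Reads of C4b are partly uncertain, since 34.6% of its 50-base transcript words also occur in the neighbouring copy C4a.

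Cd55 (chr1:130439027-130462744, minus strand) and Cd59a (chr2:104095801-104115354, plus strand) followed each other, and podocyte genes were among those most like them. Their log2 levels had a Pearson r of 0.929 over the 36 TRAP libraries, and 0.947 with group means taken out. The genes most like Cd59a included Laptm4a (0.963), Pdpn (0.961), Dag1 (0.952) and Podxl (0.946). The podocyte surface proteins podoplanin and podocalyxin are encoded by Pdpn and Podxl. Cd55 was most like Gpx8 (0.961) and Nsf (0.95), and none of its 5 nearest genes was on the podocyte list. With group means out, Podxl was at rank 3 for Cd55 (0.958).

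At 6 months both regulators were lower in the type 2 diabetic libraries. Cd55 was at 78.18, 80.06, 80.36 and 75.52 CPM in controls and 31.89, 48.26 and 6.012 CPM in diabetic libraries, with no overlap and a log2 change of -1.42 (SE 0.51). Cd59a was at 181.6, 194.8, 174.7 and 193.0 CPM against 80.02, 111.5 and 28.56 CPM, again with no overlap, and a change of -1.32 (SE 0.38). Diabetic library 3 was the lowest for both genes, and its total count, 6702120, was the lowest of all TRAP libraries. This library held 48 counts of Cd55 and 228 of Cd59a. Without it the changes were -0.96 for Cd55 and -0.95 for Cd59a, and that library had the lowest summed podocyte markers. All 10 podocyte markers fell at 6 months (edgeR, adjusted p under 0.05), from a summed 27801 to 31846 CPM in controls to 9619, 16240 and 3364 CPM in the diabetic libraries, with Nphs1 falling by 2.39 (SE 0.39, adjusted p = 0.000576, edgeR). The part of podocyte RNA content in the values of Cd55 and Cd59a was not tested.

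At 3 months the same comparison gave 0.31 for Cd55 (SE 0.40) and -0.03 for Cd59a (SE 0.30), with overlapping libraries. The 6 month change minus the 3 month change was -1.73 for Cd55 (SE 0.64) and -1.30 for Cd59a (SE 0.48), given with no test. Neither regulator passed the test in the type 1 model. Early libraries had Cd55 at 71.69, 30.92, 70.5 and 100.3 CPM without STZ and 46.5, 36.75, 44.89, 100.8 and 79.08 CPM after STZ (-0.18, SE 0.44, adjusted p = 0.871, edgeR). Late libraries had it at 47.03, 17.59, 46.68, 62.01 and 72.03 CPM against 31.59, 29.57, 12.59, 66.82 and 72.74 CPM (-0.22, SE 0.41, adjusted p = 0.928, edgeR). Cd59a was at 131.4, 81.85, 131.1 and 198.7 CPM against 94.95, 94.06, 96.49, 192.6 and 167.3 CPM in the early set (-0.10, SE 0.38, adjusted p = 0.916, edgeR). In the late set it was at 210.3, 71.49, 136.0, 163.0 and 216.0 CPM against 62.99, 101.1, 51.44, 220.2 and 199.0 CPM (-0.35, SE 0.36, adjusted p = 0.836, edgeR). The groups overlapped for both genes at both times. The antisense gene Gm16083 shares exon bases with Cd55 and had 0 to 8 counts in any library, and 8.0% of the 50-base transcript words of Cd55 also occur in its copy Cd55b.

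**Figure D4:**
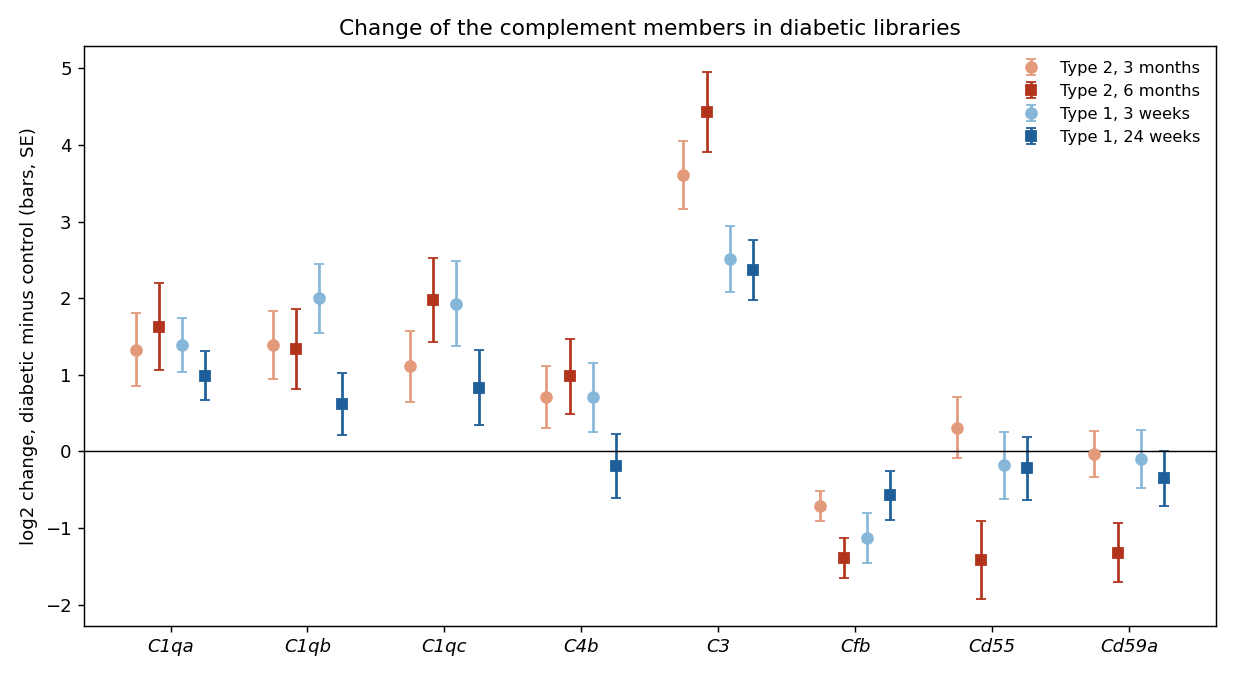
Log2 change of each member between diabetic and control libraries in the 4 comparisons, with standard errors from the edgeR fit. C3 is highest in each comparison, between 2.37 and 4.43, Cfb is below 0 in all 4, and Cd55 and Cd59a are well below 0 only in the type 2 model at 6 months, at -1.42 and -1.32.

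Counted over the list, edgeR at an adjusted p under 0.05 called 4 members higher (C3, C1qa, C1qb, C1qc) and 1 lower (Cfb) of 8 in the early type 1 set, where 6.5% of all 16279 genes tested were called. The late type 1 set gave 1 of 8 (C3), against 0.897% of all genes. In the type 2 model, on which the list was chosen, the counts are a description and nothing is read from them: the count was 1 of 8 (C3) at 3 months, where 3.99% of 17180 genes were called, and 3 higher (C3, C1qa, C1qc) and 2 lower (Cfb, Cd59a) at 6 months, where 22.9% were. No member was called between control ages in the type 1 model, where 3.7% of genes were, nor between the controls of the models, where 3.6% were. In the latter, Cfb was at 0.83 on the log2 scale (SE 0.28, adjusted p = 0.0929, edgeR), all type 1 controls being above all type 2 controls. With only those groups in the fit both Cfb (adjusted p = 0.0486, edgeR) and C3 (adjusted p = 0.00609) passed. The type 2 controls entered the choice of the list, so nothing is read from these p-values.

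The lists of complement genes hold 53 others found in the tables. Of these, 38 were tested in the type 2 model and 37 in the type 1 model. In type 2 diabetic libraries at 3 months 2 rose and 1 fell, with a median log2 change of 0.62 against 0.036 over all genes, of which 3.99% were called. At 6 months 10 rose and 5 fell (median 0.83 against -0.01 over all genes, of which 22.9% were called). Of those tested in the early type 1 set 4 rose and none fell (median 0.71 against 0.002 over all genes, of which 6.5% were called). In the late set none passed edgeR's test (median 0.42 against -0.013), and the unadjusted and DESeq2 counts are given with it: 8 genes had an unadjusted p under 0.05 and DESeq2 called 2 (Clu higher and C4a lower).

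Soluble regulators, of which 6 were tested, rose in 2, 3 and 3 cases in the type 2 model at 3 and 6 months and the early type 1 set, and none fell. Clu (clusterin), which binds the terminal complex and is made by injured tubules, rose by 1.40 (SE 0.18, adjusted p = 0.000101, edgeR) at 3 months and by 1.55 (SE 0.22, adjusted p = 0.000155) at 6 months in the type 2 model. Its level was 73.3 to 89.2 CPM in controls and 153.9 to 318.9 CPM in diabetic libraries at 3 months, with no overlap. Serping1 (C1 inhibitor), which inactivates C1r and C1s, rose by 1.12 (SE 0.32, adjusted p = 0.0192) at 6 months in the type 2 model and by 1.49 (SE 0.29, adjusted p = 0.0036) in the early type 1 set. Cfi (factor I), the protease that cleaves C3b, rose at 3 months in the type 2 model only just past the threshold (1.95, SE 0.54, adjusted p = 0.0451), from 0.606 to 3.27 CPM in controls to 2.76 to 16 CPM. Cpn1, a carboxypeptidase that trims the C3a and C5a peptides, rose by 1.10 in the early type 1 set (SE 0.26, adjusted p = 0.0122, edgeR).

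Receptors were among the genes that rose at 6 months in the type 2 model. C3ar1, the receptor for C3a, rose by 3.05 (SE 0.62, adjusted p = 0.00257, edgeR), from 0.583 to 1.90 CPM in controls to 6.57 to 14.9 CPM. C5ar1, the receptor for C5a, rose by 3.21 (SE 0.75, adjusted p = 0.00607), from 0.519 to 1.73 CPM to 5.22 to 13.5 CPM. Itgam and Itgb2, the chains of complement receptor 3 of myeloid cells, rose by 3.34 (SE 0.84, adjusted p = 0.0098) and 1.79 (SE 0.61, adjusted p = 0.0422), and Cd93 by 2.26 (SE 0.40, adjusted p = 0.00113). Itgam and Itgb2 fall outside the rule for named genes and were chosen after their values were seen. The macrophage markers given above were higher in the same libraries, and their part was not tested. In the early type 1 set C5ar2, a further C5a receptor, was called higher: it was at 0 counts in all 4 libraries without STZ and at 0 to 3.20 CPM after STZ, at least 24.1-fold higher by group mean over a floor of 3 counts in the controls together.

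Of the 11 receptors tested 5 rose and 2 fell at 6 months in the type 2 model. Of the 6 membrane regulators tested outside the members, 1 rose and 1 fell. Cr1l is on both lists and is counted as falling in each. In the 6 month comparison 22.9% of all genes were called. Colec12 fell by 1.5 in log2 units (SE 0.31, adjusted p = 0.00289, edgeR), from 88.3 to 101 CPM in controls to 14.2 to 42.3 CPM, and Cr1l by 0.61 (SE 0.19, adjusted p = 0.0287). Cd59b was at 14.6 to 20.2 CPM in controls and 1.75 to 15 CPM in diabetic libraries (log2 change -1.19, SE 0.44, adjusted p = 0.0585, edgeR), which missed the threshold. Calr, an abundant chaperone that also binds C1q, fell by 0.84 (SE 0.15, adjusted p = 0.00116). C8a, a chain of the membrane pore, fell by 2.42 at 3 months (SE 0.34, adjusted p = 0.000179, edgeR) and 1.90 at 6 months (SE 0.42, adjusted p = 0.00419), from 7 to 18 CPM to 1.19 to 3.75 CPM at 3 months. C7, another pore component, rose by 2.47 at 6 months (SE 0.70, adjusted p = 0.0181), and C4a fell by 2.17 (SE 0.50, adjusted p = 0.00515). Susd4, a membrane regulator, rose by 2.28 (SE 0.51, adjusted p = 0.0044).

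**Figure D5:**
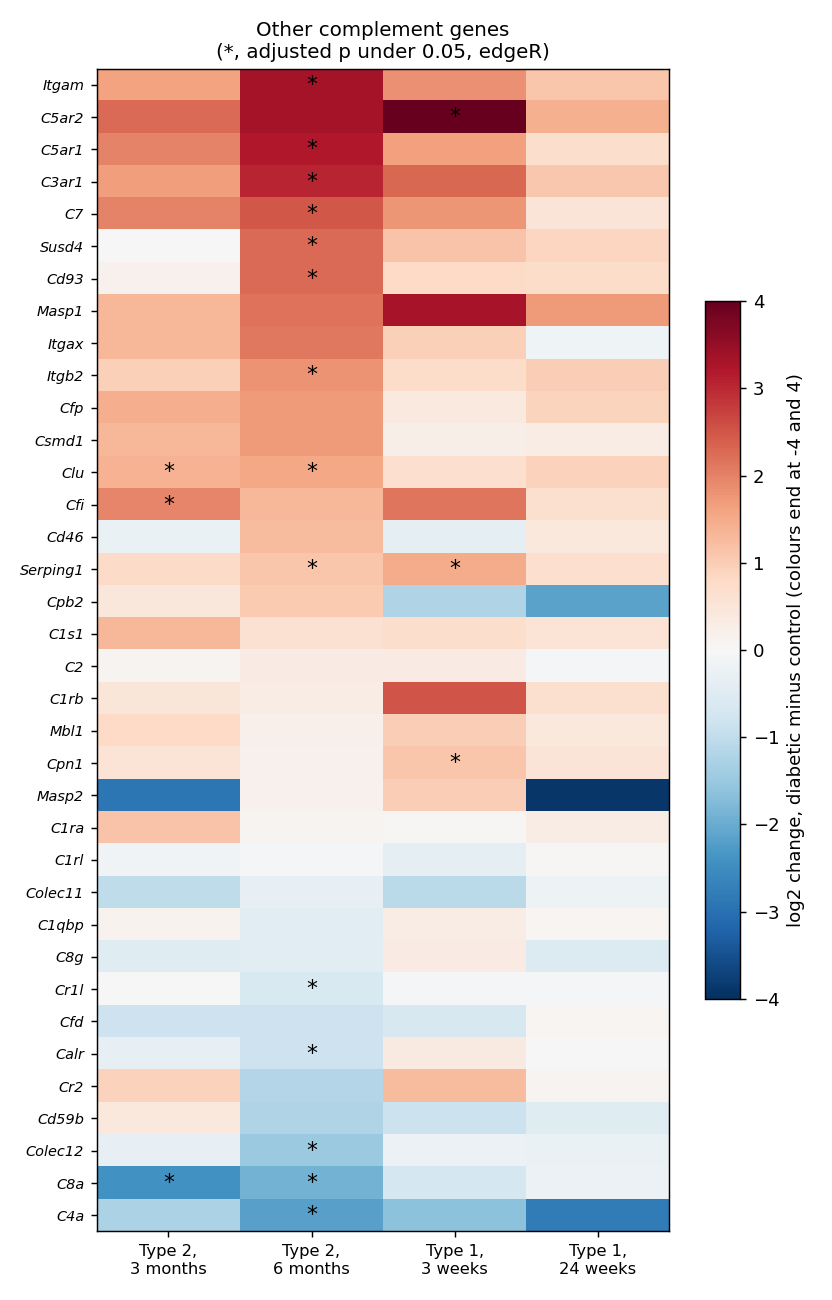
Log2 change of 36 complement genes outside the list in the 4 diabetic against control comparisons, ordered by the change in the type 2 model at 6 months; red is higher and blue lower in diabetic libraries, and an asterisk marks an adjusted p under 0.05 (edgeR). The receptors Itgam, C5ar1 and C3ar1 are called at 6 months in the type 2 model, and the value of C5ar2 in the early type 1 set rests on controls at 0 counts and is no measure of size.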

How the data were processed

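Ribosome-bound RNA (36 TRAP libraries) and total RNA (1 kidney library) were sequenced. Per the labels' protocols, RNA was DNase-treated, amplified with the NuGEN Ovation system and fragmented to 200 bp. Cutadapt 1.16, STAR, FastQC and featureCounts 1.15.2 are named, with build mm9, per the submitters' processing notes. Gene positions in the deposited tables instead matched GRCm38 (99.981% of 31871 genes matched to GENCODE M21 overlapped their place there), which is the build printed here. Whether counting used strand is not given in the sources here. The authors deposited whole-number counts per gene, used for all tests, and FPKM values, used for levels per length; the deposited FPKM equalled count over length and total within 0.001 for 100% of values.

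Counts were tested with edgeR 4.0.16 (TMM factors, its filter on low counts, robust quasi-likelihood fits, Benjamini-Hochberg adjusted p under 0.05) in R 4.3.3. The type 2 fit held 17 TRAP libraries and 17180 genes, the type 1 fit 19 and 16279, and controls of the models were compared in a fit of all 36 and 18511 genes. Levels are TMM-scaled CPM computed over 37 libraries, and kidney ratios used a pseudocount of 0.5 CPM. The members and gene lists were chosen with earlier results of these data known. Besides the members, the genes named are, per complement list, up to 4 called per comparison by lowest p and the 2 most abundant in controls, and per marker list the 3 most abundant. Likeness is Pearson's r of log2 CPM over genes with a mean of at least 5 CPM. Alternatives were DESeq2 1.42.0, limma 3.58.1 on log2(FPKM + 0.1), other scaling factors, no filter, other sets of libraries and a replicate block. Same-numbered control and diabetic libraries had correlations of -0.242 to 0.451, not all over 0.1, so the numbers were not taken as pairs. No replicate pair was identical. Tested on simulated data for the type 2 model at 3 months (16366 genes), the fit recovered 41.5% of genes changed by 1 and 96.9% of those changed by 2 on the log2 scale, with 6.94% false calls. The simulation gave every gene the same dispersion and no library that stood apart, so these figures do not give the recovery in the real libraries. Some genes on the lists, which enter the counts and sums, and the driver of the tag are not reported here by name.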

Additional observations from a re-analysis of the deposited data

Results flagged for a closer look

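Single libraries stood apart from their own group for 6 of the 56 pairs of a member and a group of 4 or 5 libraries, by the gap to the nearest library as a share of the group's range (Dixon's 95% critical value). Chance flags about 1 in 20 groups. In the type 2 controls at 6 months, C3 in library 1 was high at 73.0 CPM, C4b in library 3 at 25.1 CPM and C1qb in library 4 at 7.04 CPM. In the late type 1 controls C4b in library 4 was high at 83.2 CPM, and in the early type 1 controls C1qa in library 4 was low at 6.83 CPM. In the late type 1 STZ libraries C1qb in library 3 was high at 22.3 CPM.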

How the results depend on the processing

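Counts are of complement genes called, members included, out of those tested. In the type 2 model, on which the members were chosen, the counts without them were 3 at 3 months (DESeq2 7, leaving out 1 library 2 to 6) and 15 at 6 months (DESeq2 19, leaving out 1 library 9 to 20). The type 2 counts that follow include the members, so they show only how far processing moved a count, and nothing else is read from them. DESeq2 called 11 in place of 4 in the type 2 model at 3 months, 15 in place of 9 in the early type 1 set, 3 in place of 1 in the late set, 2 in place of 0 between type 1 control ages, 1 in place of 0 for the difference of 6 and 3 months and 2 in place of 0 between the controls of the models. With all 36 libraries in the fit the late type 1 set gave 3 and the type 1 control ages 2, as limma on log2(FPKM + 0.1) did for the latter. Between the controls of the models, RLE and upper-quartile factors each gave 1, and a fit of only those groups 3. Without diabetic libraries 4 and 5 at 3 months the difference of 6 and 3 months gave 18 in place of 0. Over all genes that setting called 2090 of 16774, in place of 0 of 17180. Leaving out 1 library at a time gave 3 to 7 at 3 months (7 without diabetic library 2 or 3) and 11 to 25 in place of 20 at 6 months (13 without diabetic library 1, 11 without 3). It gave 5 to 14 in the early type 1 set (5 without STZ library 3, 14 without control library 2), 1 to 2 in the late set, 0 to 2 between type 1 control ages, 0 to 1 for the difference of 24 and 3 weeks, 0 to 6 for that of 6 and 3 months, 0 to 1 between models and 0 between type 2 control ages. Over all genes, leaving out 1 library gave 1932 to 5350 called in the type 2 model at 6 months and 611 to 1350 in the early type 1 set. For the difference of 6 and 3 months it gave 0 to 1911. The cause was not tested.

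With the replicate block the counts were 4 and 19 in the type 2 model and 12 and 1 in the type 1 model, 0 for both differences, and Cfb in the early type 1 set was lost (-1.15, adjusted p = 0.067, edgeR); limma gave -0.96 for it (adjusted p = 0.0718). Over all genes the block called 403, 2575, 977 and 82 genes and DESeq2 1270, 4864, 1789 and 441, in the order of the 4 comparisons, against 685, 3934, 1058 and 146. Libraries matched their own number best in 3 of 17 cases. The block could not be fitted between ages or models. C1qc in the early type 1 set was lost with no filter (adjusted p = 0.081, edgeR). No called value changed sign. With Spearman's correlation in place of Pearson's, 4 of the 5 genes nearest to C3 stayed among the 5 nearest. For Cfb, C4b, the C1q sum and Cd59a 3 stayed, and for Cd55 1 stayed.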
